A study of Danio rerio with 8 samples.

Results

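The proteasome is the protease complex that degrades proteins tagged with ubiquitin. Its core particle is a barrel of alpha and beta rings, in which the beta subunits psmb5, psmb6 and psmb7 carry the catalytic sites. A regulatory particle with a ring of ATPases, further base subunits and a lid binds, unfolds and feeds in the tagged substrate. In vertebrates interferon induces alternative catalytic subunits that form the immunoproteasome, which is known for producing peptides for MHC class I. Activators of the psme family can cap the core in place of the regulatory particle, and psmg chaperones help to assemble it.

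The zebrafish genes of this complex were compared between the cornea and the epidermis of the skin. They were taken by symbol (psma to psmg followed by a digit), which gave 53 of 14462 named genes on the array. Among them were 10 alpha (psma), 13 beta (psmb) and 7 ATPase genes (psmc). A further 14 psmd genes were those of other regulatory particle subunits and of chaperones of its base. There were also 3 activators (psme), the inhibitor gene psmf1 and 3 chaperones (psmg). A further 2 symbols, psmc3ip and psme3ip1, fitted the pattern but name binding partners of a subunit. All 53 had values on every array, and no filter was set. The subunit genes psmd11a and psmd12 were not analysed here.

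Tissues came from adult zebrafish of the AB2O2 wild type strain. Each of 4 biological repeats pooled corneae dissected from many eyes and scales, which carry the epidermis, scraped from several fish, so scale cells can be in the epidermis samples. Both RNAs of a repeat were hybridised together on 2 arrays with exchanged Cy3 and Cy5 dyes, repeats 1 and 2 on slide 1 and repeats 3 and 4 on slide 2. Values are log2 ratios of cornea over epidermis, given as mean ± SD of the 4 repeats after both arrays of a repeat were averaged.

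The direction is not stated with the values and is taken from the tissue order in the labels. With it, of 35 cornea genes on the study's RT-qPCR list (set against dermis there), 32 were called higher here and 1 lower. Those genes were selected from array results of the study, so the count is no independent check of the direction. Gene names rest on a rearranged probe grid. Under it, 2 probes of the same gene correlated at r = 0.361 over 5098 genes, against r = 0.0191 with the numbering as given. Arrays of a repeat with opposite dyes correlated at r between 0.39 and 0.515, and arrays of different repeats with the same dyes at r between 0.384 and 0.596. Array medians lay between −0.0195 and 0.00915. Among marker genes of other cells, retina genes were higher in 5 of 14 and lower in 0 (median 0.43, and 0.04 to 0.91 in single repeats), and skeletal muscle genes were higher in 6 of 13 and lower in 1. Genes of scale osteoblasts and osteoclasts were lower in 4 of 12 and higher in 2. Vascular endothelium genes were lower in 5 of 12 and higher in 3, and erythroid genes lower in 2 of 9 and higher in 1. Retinal pigment epithelium and melanophore genes were higher in 3 of 10 and lower in 1. Lens genes (13) and ionocyte and mucous cell genes (8) had 2 higher and 2 lower each. Among all genes 22.9% were higher and 13.8% lower. The part of such cells in the ratios was not tested. A ratio of bulk RNA cannot tell fewer cells of a type from less RNA per cell.

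Proteasome genes went both ways, and more of them were higher than lower in cornea. Of the 53 members 19 were called higher, against 22.9% of all genes, and 8 lower, against 13.8% of all genes (27 in either direction, against 36.7%). A call is an adjusted p under 0.05 in limma, with Benjamini-Hochberg adjustment over all genes. The share higher was 35.8% of members. The share lower was 15.1%, near that of all genes, and gave no result about the members. The median log2 ratio was 0.26 over members and 0.03 over all genes. By repeat, the median of the members was 0.17, 0.06, 0.23 and 0.37 in repeats 1 to 4, against 0.07, 0.03, 0.06 and 0.09 for all genes. Members above 2-fold in cornea and called numbered 11 (10.3% of all genes), and 0 were called and over 2-fold lower (4.87% of all genes). On all 8 arrays 33 members had 1 sign (34.8% of all genes). The SD between repeats was smaller for members (median 0.20) than for all genes (0.31), and its part in the calls was not tested. With repeats 1 to 4 left out in turn, 8, 5, 4 and 4 members were called lower. Over all genes the count of lower calls fell too, from 1994 to 1879, 1519, 1329 and 1352.

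**Figure D1:**
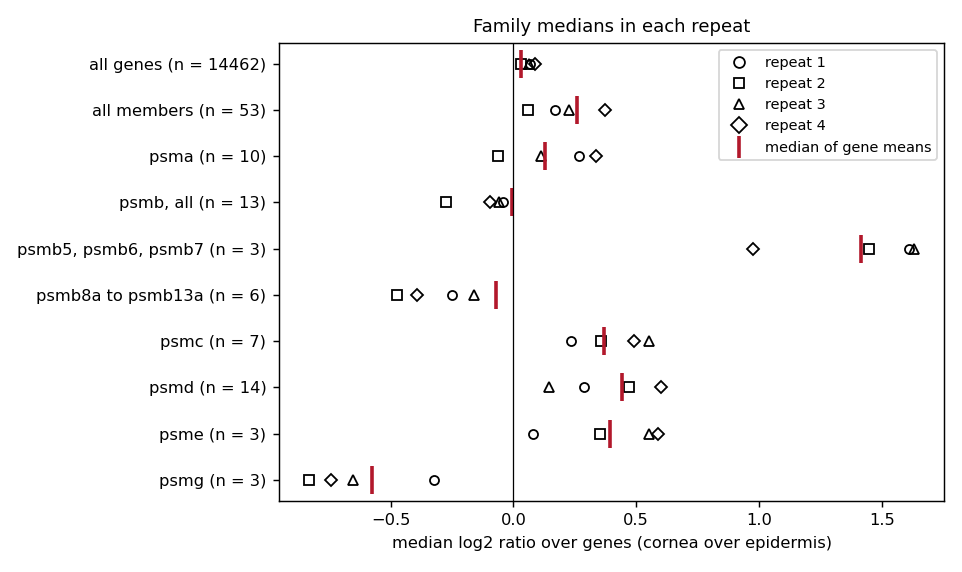
Median log2 ratio (x axis, cornea over epidermis) over the genes of each family, for each of 4 repeats (open symbols) and for the means over repeats (red bars). The catalytic subunits lie above 0 in all repeats, psmc, psmd and psme lie above 0, and psmg lies below 0; medians over 3 genes are those of single genes.

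Of 13 psmb genes 3 were higher and 1 lower, with a median of −0.005. Among all genes 22.9% were higher and 13.8% lower, so these counts are no result about the family. The largest difference was that of psmb5, the subunit with chymotrypsin-like activity, measured by 1 probe. Its log2 ratio was 2.81, 3.03, 3.49 and 2.97 in repeats 1 to 4, or 8.44-fold higher in cornea (3.08 ± 0.29, limma adjusted p = 7.27e-05). It was 72nd from the top among 14462 genes, and its lowest repeat lay above the highest repeat of the other catalytic subunits. For psmb7, with trypsin-like activity, the repeats gave 1.61, 1.45, 1.63 and 0.97 (mean 1.42 ± 0.31, adjusted p = 8.35e-04). The caspase-like subunit psmb6 stood at 0.64, 0.03, 0.50 and 0.60 and was not called (0.44 ± 0.28, adjusted p = 0.0589). It was called without repeat 2 (adjusted p = 0.0306), the repeat near 0, and with all 8 arrays and the repeat as a block (adjusted p = 0.0147). Without repeat 1, 3 or 4 psmb6 was not called (limma adjusted p between 0.149 and 0.184). The repeats of these catalytic subunits did not overlap between psmb5 and psmb7 or between psmb7 and psmb6. How often the repeats of other gene pairs overlap was not counted. Each gene had 1 probe, and probes of the same gene had a median gap of 0.59 over 5098 genes. How far the choice of probe set these gaps was not tested.

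Of the beta subunits without a catalytic site, only psmb3 was called. Its repeats spread from 0.72 in repeat 2 to 2.96 in repeat 4, with 2.08 and 1.82 in repeats 1 and 3 (mean 1.89 ± 0.92, adjusted p = 0.00568). The others, psmb1, psmb2 and psmb4, lay between −0.32 and −0.13 with SDs of at most 0.09, and none was called, though psmb4 was with the repeat as a block (adjusted p = 0.0119). All 8 arrays were below 0 for psmb1 and psmb4. Their repeats did not overlap with those of psmb3, a subunit of the same ring that was measured by 1 probe. The share of other gene pairs without overlap was not counted.

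No subunit of the immunoproteasome or its relatives was called higher, unlike psmb5 and psmb7. Of 6 measured, 0 were called higher and 1 lower, against 22.9% and 13.8% of all genes, and their median was −0.07. With 6 genes, and SDs up to 1.53 (psmb8a), these counts are no result about the group. The gene called was psmb9a, the interferon-induced counterpart of psmb6, with −0.83, −0.44, −0.56 and −0.66 (mean −0.62 ± 0.16, adjusted p = 0.00969). The dye orientations differed in size: the mean was −0.98 with cornea in Cy5 and −0.26 with cornea in Cy3, and it was not called on the latter arrays alone (adjusted p = 0.302). For psmb10, the counterpart of psmb7, all repeats were below 0 at −0.45, −0.58, −0.26 and −0.09 (adjusted p = 0.089, and 0.0276 with the repeat as a block). The counterpart of psmb5, psmb8a, stood at 2.68 in repeat 1 but at −0.50, −0.06 and −0.50 in the others (adjusted p = 0.595). The arrays of repeat 1 stood at 0.84 with cornea in Cy5 and at 4.53 with cornea in Cy3. Without repeat 1 the mean of psmb8a was −0.35 (adjusted p = 0.146).

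The remaining genes of this group changed sign between repeats. All 3 carry RefSeq synonyms of thymic type subunits. They were psmb11a (−0.56, −0.73, 1.03 and −0.29), psmb12 (0.25, 0.75, −0.38 and −0.65) and psmb13a (−0.04, −0.45, 0.40 and 0.31). In the RefSeq gene order psmb13a, psmb8a, psmb12 and psmb9a were direct neighbours, and psmb11a was the neighbour of psmb5. The ratios of these last neighbours were −0.14 ± 0.80 and 3.08 ± 0.29.

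Ratios of the constitutive subunits were set against those of their interferon-induced counterparts within repeats, with 1 probe for each gene. The constitutive subunit had the higher ratio in 4 of 4 repeats for each of 3 pairs. Single arrays with cornea in Cy3 could differ. In repeat 1 psmb8a (4.53) lay above psmb5 (3.11) there, and in repeat 2 psmb9a (0.05) lay above psmb6 (−0.08). How often other gene pairs keep 1 order was not counted. The difference on the log2 scale was 2.67 ± 1.69 between psmb5 and psmb8a, and only 0.13 in repeat 1 against 3.47 to 3.55 in the others. It was 1.07 ± 0.43 between psmb6 and psmb9a and 1.76 ± 0.47 between psmb7 and psmb10. These pairs were chosen after their values were seen, so the differences are given without a test. Leukocytes express these induced subunits. Of 20 leukocyte marker genes measured, 4 were higher and 8 lower in cornea, against 22.9% and 13.8% of all genes. They lay between 2.63 for the macrophage gene mpeg1.2 and −1.61 for its relative mpeg1.1. Their median was −0.33, and between −0.53 and −0.09 in single repeats. The part of leukocytes in these ratios was not tested.

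**Figure D2:**
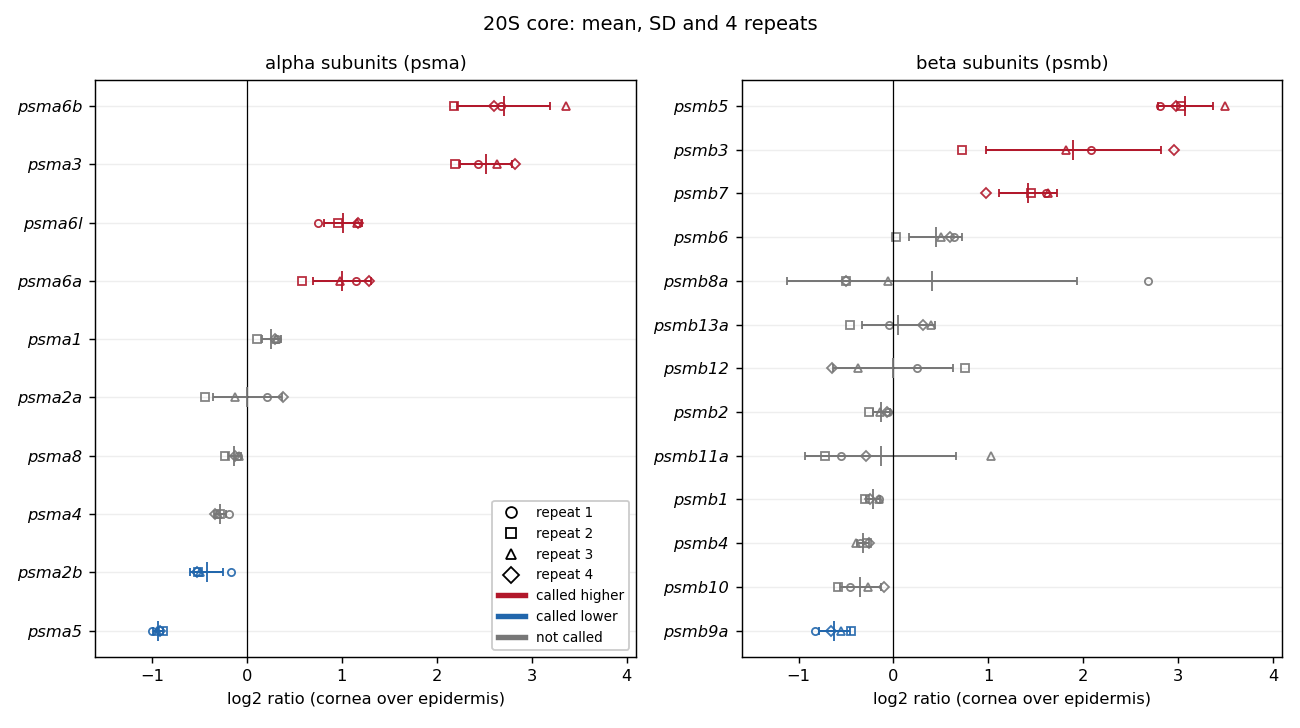
Log2 ratio (x axis, cornea over epidermis) of each alpha subunit gene (left) and beta subunit gene (right); open symbols are the 4 repeats, bars the mean with SD, and colour the call. The ratios run from −0.94 to 2.71 among alpha and from −0.62 to 3.08 among beta genes, and psmb8a has 1 repeat far above the others.

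The alpha ring, which gates entry to the barrel, held genes at both ends. Of 10 psma genes 4 were higher, 2 lower and 4 not called, with a median of 0.13. Among all genes 22.9% were higher and 13.8% lower, so with 10 genes these counts are no result about the family. Highest was psma6b with 2.68, 2.18, 3.37 and 2.60 (mean 2.71 ± 0.49, adjusted p = 2.35e-04), a 6.53-fold difference. Next was psma3 with 2.43, 2.19, 2.63 and 2.82 (mean 2.52 ± 0.27, adjusted p = 1.22e-04). The third, psma6l, stood at 0.75, 0.96, 1.16 and 1.17 (adjusted p = 0.00164). At the other end psma5 was lower in cornea with little spread, at −1.0, −0.88, −0.95 and −0.91. That was a 1.91-fold higher level in epidermis (−0.94 ± 0.05, adjusted p = 0.00126). SDs between the means of members were 1.23 in psma and 1.07 in psmb, against 0.41 in psmc, where the members lay closest together among families of over 3 genes. The typical SD between repeats of a member was 0.19, 0.29 and 0.11 in these families. The uncalled alpha genes were psma2a (0.00 ± 0.37), psma8 (−0.13 ± 0.07), which has psma7 as a synonym in RefSeq, psma1 (0.26 ± 0.10) and psma4 (−0.28 ± 0.06, below 0 on all 8 arrays). With the repeat as a block psma1 and psma4 were called (adjusted p = 0.0358 and 0.0222).

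Zebrafish keeps duplicates of some subunits, and 4 such pairs were measured. The difference between the copies was tested with limma over all 1511 pairs of symbols ending in a and b, of which 40.0% were called. Of the 4 pairs 2 were called. Both psma6a and psma6b were higher in cornea, but psma6a, with 1.15, 0.58, 0.98 and 1.29, lay below psma6b in every repeat (difference −1.71 ± 0.47, adjusted p = 0.00152). A further gene, psma6l (1.01 ± 0.20), has psma6b as a synonym in RefSeq and was not part of a pair. Copy psmd4a, with 0.17, 0.41, 0.23 and 0.44, lay below psmd4b, with 1.32, 1.63, 1.75 and 1.74 (difference −1.30 ± 0.16, adjusted p = 0.00165). With the probe of smallest variance for each copy the order turned and the difference was not called (0.28, adjusted p = 0.243). The psmd4 protein is a ubiquitin receptor of the base.

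For psmc1, an ATPase, copy a stood at 0.22, 0.28, 0.55 and 0.42 and copy b at 0.86, 0.74, 1.00 and 0.86. Copy a was below copy b in each repeat, and the difference was not called (−0.50 ± 0.10, adjusted p = 0.061) but was with all 8 arrays and the repeat as a block (adjusted p = 0.0144). For psma2 the copies stood at 0.21, −0.45, −0.13 and 0.38 (a) and at −0.17, −0.52, −0.50 and −0.52 (b). The difference of 0.43 ± 0.34 was not called (adjusted p = 0.146). The call of psma2b itself as lower (−0.43 ± 0.17, adjusted p = 0.0406) was lost without repeat 2, 3 or 4 (adjusted p between 0.115 and 0.14). How far probes for a copy also bind the other copy was not tested.

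Of 21 psmc and psmd genes 10 were higher and 2 lower, with a median of 0.37. Among all genes 22.9% were higher and 13.8% lower. The 21 include chaperones of the base (psmd5, called higher, psmd9, called lower, and psmd10), which are not subunits of the regulatory particle. Of the 7 ATPase genes, whose products form the ring that unfolds substrates, 3 were higher and 0 lower, and all 7 means were above 0. Beside the shares of all genes, and with 7 genes, these counts of calls are no result about the ring. Highest was psmc6 with 1.14, 1.06, 1.32 and 1.36 (mean 1.22 ± 0.14, adjusted p = 6.29e-04). It was followed by psmc1b (0.87 ± 0.11, adjusted p = 0.00197) and by psmc2 with 0.66, 0.79, 0.72 and 0.77 (0.73 ± 0.06, adjusted p = 0.00339). Those not called were psmc1a, psmc3 (0.30 ± 0.10), psmc5 (0.31 ± 0.17) and psmc4, the only one near 0 (0.01 ± 0.08). With all 8 arrays and the repeat as a block psmc1a, psmc3 and psmc5 were called too (adjusted p between 0.0104 and 0.029).

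Of the 4 other base genes 3 were called higher, and psmd4a was not (0.31 ± 0.14, adjusted p = 0.0907). Among all genes 22.9% were higher, and with 4 genes the count is no result about the base. The scaffold gene psmd2 gave 1.34, 1.72, 1.81 and 1.91 (mean 1.70 ± 0.25, adjusted p = 3.27e-04), and psmd4b was 3.05-fold higher (1.61 ± 0.20, adjusted p = 3.09e-04), or 0.64 on the log2 scale with its probe of smallest variance. The gene of the other large scaffold, psmd1, was higher to a smaller extent (0.74 ± 0.23, adjusted p = 0.0069). Repeat 1 was the lowest for these 3 genes.

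Lid genes split. Here psmd3 stood highest with 1.38, 2.35, 2.1 and 2.26 (mean 2.02 ± 0.44, adjusted p = 4.85e-04), a 4.06-fold difference. Also higher were psmd8 (0.88 ± 0.13, and 0.50 with its probe of smallest variance) and psmd6, whose repeats of 0.54, 0.53, 0.59 and 0.62 hardly spread (0.57 ± 0.04, adjusted p = 0.00919). Lower was psmd7 with −0.30, −0.60, −0.65 and −0.54 (mean −0.52 ± 0.16, adjusted p = 0.0182), a call lost without repeat 2, 3 or 4 (adjusted p between 0.0603 and 0.0839). Its binding partner psmd14, the deubiquitinase of the lid, was below 0 on all 8 arrays at −0.29 ± 0.06 and was not called (adjusted p = 0.0961, and 0.0207 with the repeat as a block). Nor were psmd11b (−0.27 ± 0.14) and psmd13 (−0.02 ± 0.56) called. The small lid subunit sem1, which carries no psm symbol, was lower in cornea with −0.95, −1.08, −1.12 and −1.23 (mean −1.1 ± 0.12, adjusted p = 8.48e-04). Of the lid genes listed, psmd3 was the highest and sem1 the lowest, with opposite signs on all 8 arrays. The gene sem1 was named after its value was seen, so this contrast is no result about the lid.

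Genes whose products help to build the complex were mostly lower in cornea. All 3 psmg chaperones of the core were called lower. Lowest was psmg3 with −0.49, −1.23, −1.03 and −1.08 (mean −0.96 ± 0.32, adjusted p = 0.00416), or 1.95-fold higher in epidermis. The partners psmg1 and psmg2, which act as a dimer, followed. For psmg1 the repeats were −0.32, −0.59, −0.65 and −0.74 (mean −0.58 ± 0.18, adjusted p = 0.014). For psmg2 they were −0.19, −0.83, −0.60 and −0.45 (mean −0.52 ± 0.27, adjusted p = 0.0331). Repeat 1 was nearest to 0 for each of the 3. The core maturation factor pomp, outside the psm symbols, was lower as well, with −1.11, −1.03, −1.34 and −1.43 (mean −1.23 ± 0.19, adjusted p = 7.58e-04). Of the chaperones of the base, psmd9 was lower with −0.56, −0.61, −0.55 and −0.78 (mean −0.62 ± 0.11, adjusted p = 0.00749). By contrast psmd5 was higher (0.68 ± 0.46, adjusted p = 0.034), and psmd10 stood at 0.01 ± 0.20. Of the 6 assembly genes with a psm symbol 4 were lower and 1 higher, against 13.8% lower and 22.9% higher among all genes. The gene pomp was named after its value was seen and is not counted.

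Several of these assembly calls were not stable. That of psmg1 was lost without repeat 3 or 4 (adjusted p = 0.0644 and 0.0663) and with cornea in Cy5 only, where its mean was −0.19 against −0.97 with cornea in Cy3. That of psmg2 was lost without repeat 2, 3 or 4 (adjusted p between 0.0909 and 0.114), and that of psmd5 without repeat 1, 2 or 4 (0.0909 to 0.124). The calls of psmg3, psmd9 and, among core genes, psma5 held with any 1 repeat left out.

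**Figure D3:**
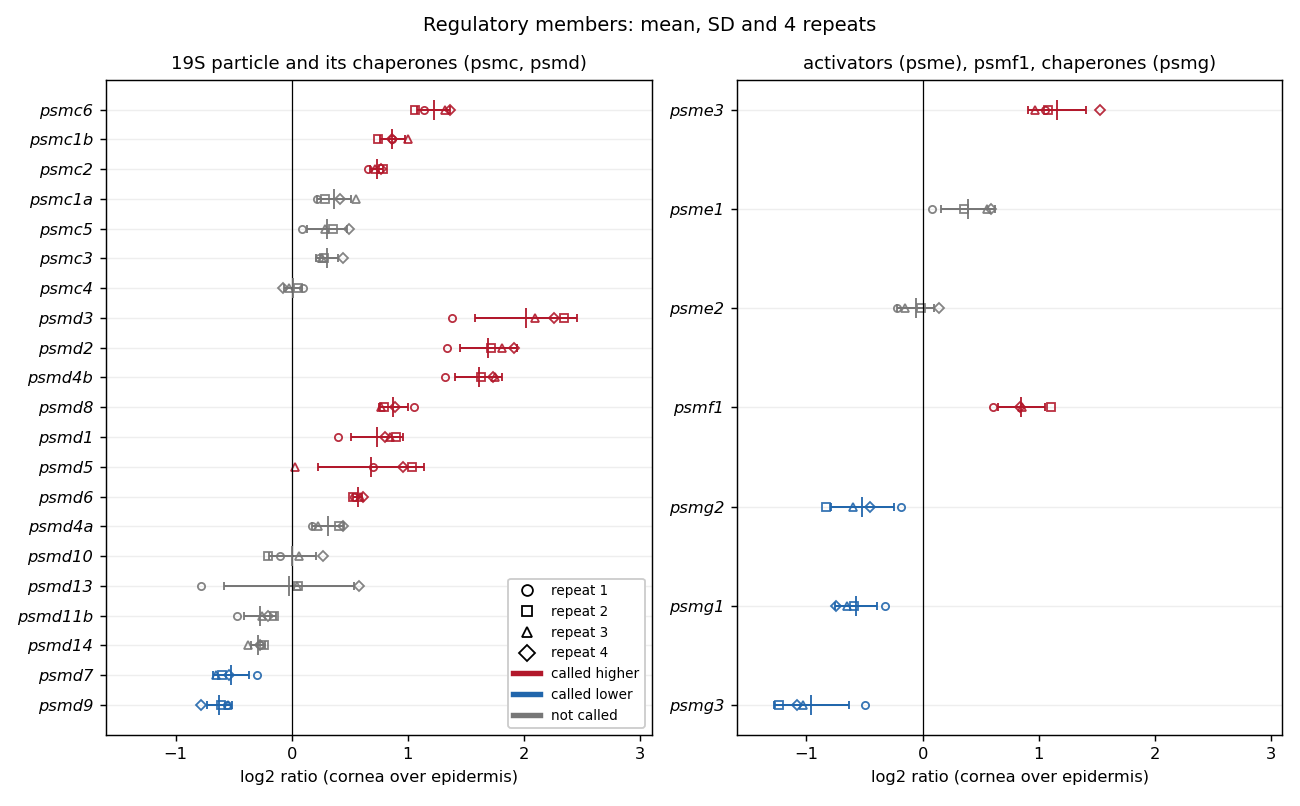
Log2 ratio (x axis, cornea over epidermis) of the psmc and psmd genes (left) and of the psme, psmf and psmg genes (right); open symbols are the 4 repeats, bars the mean with SD, and colour the call. All psmc means lie above 0, psmd genes run from −0.62 to 2.02, and the 3 psmg genes lie below 0 in every repeat.

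Of the 3 activator genes 1 was called, against 36.7% of all genes in either direction. This was psme3, which encodes the nuclear activator, with 1.05, 1.08, 0.97 and 1.53 (mean 1.16 ± 0.25, adjusted p = 0.00131). The call was lost with its probe of smallest variance (0.15, adjusted p = 0.381). The genes of the interferon-induced activator were not called. They were psme1 with 0.08, 0.35, 0.55 and 0.59 (adjusted p = 0.0678, but 0.0396 without repeat 1 and 0.016 with the repeat as a block) and psme2 with −0.22, −0.01, −0.15 and 0.14 (adjusted p = 0.74). For psmf1, which encodes a proteasome inhibitor and binding protein, the repeats were 0.61, 1.1, 0.85 and 0.84 (mean 0.85 ± 0.20, adjusted p = 0.00333). With its probe of smallest variance it stood at −0.05 and was not called (adjusted p = 0.775). The partner genes psmc3ip, known from meiotic recombination, and psme3ip1 were not called (−0.67 ± 1.05 and −0.10 ± 0.22), and repeat 1 of psmc3ip stood at −2.22.

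Of the 53 members 41 had a single probe, among them 20 of the 27 called. The 12 others had 2 or 3 probes, and these often disagreed in size. The gap between the highest and lowest probe of a gene had a median of 0.65 over the 12 members, against 0.59 over 5098 genes. It was above 1 in 4 of them, namely psmd4a, psmd4b, psme3 and psmf1. The mean of psmf1 combined a probe at 1.75 ± 0.49 with one at −0.05 ± 0.14, and that of psme3 joined probes at 1.79 and 1.54 with one at 0.15. For psmd4a the probes stood at 0.92 and −0.30, and for psmd4b at 2.58 and 0.64. The lower probe of psmd4b therefore lay below the upper probe of psmd4a, so the order of these copies depended on the probes. Probes of psmd1 (0.80 and 0.67) and psmb4 (−0.32 and −0.33) lay close together. Counted by probe in limma over all 45220 features, 23 of 67 member probes were higher (14.0% of all features) and 7 lower (10.4%), against 24.4% of all features in either direction. Called probes of opposite direction in the same gene occurred in 0 of 4 members with 2 or more called probes, and in 21.4% of 1059 such genes.

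**Figure D4:**
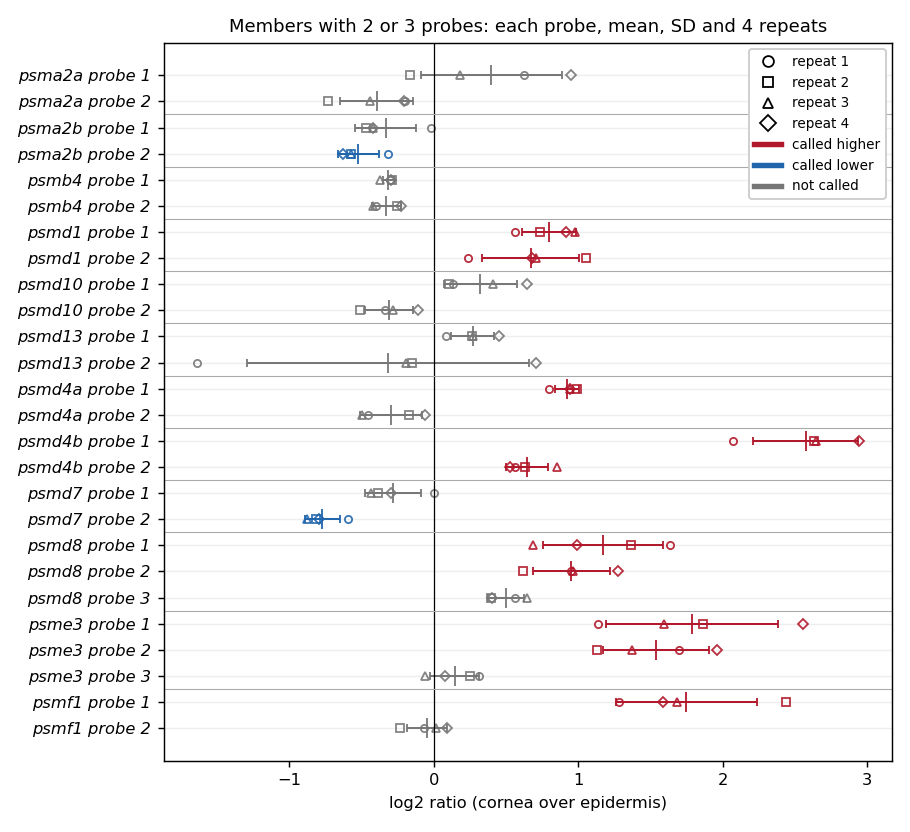
Log2 ratio (x axis, cornea over epidermis) of each probe of the 12 members with 2 or 3 probes; open symbols are the 4 repeats, bars the mean with SD, and colour the call of the probe. The probes of psmf1, psme3, psmd4a and psmd4b lie over 1 log2 unit apart, while those of psmb4 and psmd1 overlap.

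Genes around the proteasome were also compared, from lists of the pathway, beside 22.9% higher and 13.8% lower among all genes. Of 9 deubiquitinases, ligases and related factors 6 were higher and 0 lower, with a median of 0.55. They included uchl1 (1.72 ± 0.32), the ligase gene ubr4 (1.25 ± 0.16) and usp14, which trims ubiquitin chains on the proteasome (0.47 ± 0.15, adjusted p = 0.0271). Of 9 genes that extract or deliver ubiquitinated proteins 3 were higher and 1 lower, with a median of 0.42. The segregase gene vcp had 2.35, 2.73, 2.78 and 2.84 (mean 2.67 ± 0.22, adjusted p = 7.98e-05), and faf1 was lower (−0.45 ± 0.21). The polyubiquitin gene ubb stood at 2.53, 2.21, 2.32 and 2.70 (mean 2.44 ± 0.22, adjusted p = 1.04e-04). The ubiquitin and ribosomal fusion gene rps27a was not called (−0.31 ± 0.18). Of 5 activating enzyme genes for ubiquitin and its relatives 2 were higher, uba3 (2.46 ± 0.21) and nae1 (0.80 ± 0.18), whose products together activate NEDD8. The gene of the main ubiquitin-activating enzyme, uba1, was not called (−0.30 ± 0.27).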

How the data were processed

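Per the methods, the authors read 2-colour Agilent arrays in GenePix, then corrected the background (minimum method) and normalised within arrays and between arrays (Aquantile) in limma (version not given in the sources). Each array has 1 deposited log2 ratio for each feature. Base 2 is assumed, since limma works in it. Arrays of opposite dyes correlated above 0, so no sign was turned. No spot intensities were used, so background and saturation are unknown; the number of arrays limits the precision.

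The 45220 features were matched to the platform annotation through a grid of 532 by 85 places. Under it 21061 probes had 1 symbol, 0 had several and 24159 features had none. Each of the 53 member IDs had an entry in RefSeq (GRCz12tu), and 0 symbols had changed. Probes of a gene were averaged. The arrays of a repeat, which share their RNA extracts, were averaged (n = 4). The mean was tested against 0, two-sided, with limma 3.58.1 in R 4.3.3 (lmFit, eBayes). This procedure was checked on simulated data. The repeat number pairs arrays by design; deviations correlated between 0.0213 and 0.0899 within repeats.

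Members and lists were chosen with earlier results of these data known, and the pairs of constitutive and induced subunits after seeing values. Values by repeat are given for the 3 highest and 3 lowest called members of a family, catalytic, immunoproteasome, psme and psmf genes and duplicate pairs; of pathway lists, mainly for the highest and lowest called genes. Genes named beyond these (pomp, sem1, uba1 and rps27a, for example) were chosen after their values were seen. Alternatives covered dyes, repeats, slides, normalisation, probes, variance model, threshold and layout. No sequences were used. Python 3.11.15 with numpy 2.4.6, pandas 2.3.3 and matplotlib 3.10.9 and data.table (version 1.17.8) handled and plotted values.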

Additional observations from a re-analysis of the deposited data

Results flagged for a closer look

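In 3 of 53 members (5.66%) 1 repeat lay far from the other 3, measured as its gap to the nearest repeat over the whole range. Chance flags about 1 in 20 groups, and 5.88% of all genes were marked in this way. For psmb8a repeat 1 stood at 2.68. For psma2b repeat 1 stood at −0.17, nearer to 0 than the others. For psma1 repeat 2 stood at 0.11, below the others.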

How the results depend on the processing

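Of 27 called members 22 stayed called with any 1 repeat left out, and 26 had 1 sign in all 15 alternatives that refit each member. The exception in sign was psmf1, at −0.0482 with the probe of smallest variance. With that probe, an alternative added for the gene pairs after seeing the data, the psmd4 copies differed by 0.28 in the opposite direction, uncalled. Leaving out 1 repeat gave 18 to 19 members higher and 4 to 8 lower, and 2466 to 2975 genes higher and 1329 to 1879 lower. With all 8 arrays, a dye term and the repeat as a block, 26 members were higher and 11 lower. In that fit 3473 genes were higher and 2135 lower, psmg1 was not called, and the difference between the copies of psmc1 was called (−0.50). The members gained were psma1, psmb6, psmc1a, psmc3, psmc5, psmd4a and psme1 (higher) and psma4, psmb4, psmb10 and psmd14 (lower), with adjusted p between 0.0104 and 0.0358. It changed no other call of a member or pair. Members called lower numbered 4 with cornea in Cy5 only, and 1548 genes were lower there. Within slide 1 (2 repeats) 10 members were higher and 0 lower in limma (3 lower at an unadjusted p under 0.05), with 1400 genes higher and 639 lower. Within slide 2, 3 members were lower, and 2190 genes were higher and 1224 lower. With calls restricted to over 2-fold at an adjusted p under 0.001, 8 members were higher and 0 lower, and 960 genes higher and 315 lower. With TREAT against 1.2-fold 3 members and 1176 genes were lower. With the annotation matched directly 10 members were higher and 5 lower, and 1944 genes were higher and 1489 lower. The cause of these differences was not tested. Dye effects were called in 0 members and in 0 of all 14462 genes by limma. At an unadjusted p under 0.05 they were seen in 5 members (9.43%), against 12% of all genes.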

Other observations

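Of 10 regulators of proteasome genes measured, 3 were higher and 1 lower in cornea, with a median of 0.21. These shares lie near the 22.9% higher and 13.8% lower among all genes, so the counts are no result about the list. The transcription factor gene nfe2l1a, whose mammalian relative drives proteasome genes when proteasomes are inhibited, had a log2 ratio of 0.42 ± 0.17 (limma adjusted p = 0.0434). Its activating enzyme gene ngly1 stood at 0.93 ± 0.28 (adjusted p = 0.00365), and the stress factor gene nfe2l2a at 0.59 ± 0.31 (adjusted p = 0.0267). The gene of a small Maf partner, mafgb, was lower (−0.79 ± 0.14, adjusted p = 0.00335).

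Among 24 genes listed for interferon response and class I presentation 10 were higher and 3 lower in cornea, against 22.9% and 13.8% of all genes. Their median was 0.21 (0.03 over all genes). The 24 include dhrs13b.2 (1.24 ± 0.33, called higher), whose symbol is not that of an interferon or class I gene. The interferon gamma receptor gene ifngr1 was highest (2.59 ± 0.43), followed by tapbp.1, which encodes a loading factor of class I molecules (1.26 ± 0.17). A second receptor gene, ifngr2, was called lower (−0.59 ± 0.27, limma adjusted p = 0.0218). Lowest were irf1a, a factor that induces immunoproteasome genes in mammals (−1.34 ± 0.64), and the signalling inhibitor gene socs1a (−0.99 ± 0.50).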
